A study of Mus musculus with 2 samples.

Results

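The 9 genes described here are Trem2, Apoe, Gpnmb, Spp1, Fabp5, Lpl, Cd9, Cd36 and Lgals3, the set by which lipid-associated macrophages are usually recognised. They were taken by symbol, not by their values, and all 9 were found among the 55357 features of both libraries. The data are single-cell RNA counts from 2 libraries of mouse tissue labelled colon, made in a study of RUNX3 and natural killer (NK) cells in colorectal cancer that used tumour models. One library is labelled WT, with the genotype RUNX3 wt, and the other KO, with the genotype RUNX3 ko. The labels state no strain, age, treatment, tumour model or number of animals. With 1 library per group there is no replicate and no test, and every interval below is a 95% interval for counting error only.

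After filtering, 8343 cells of the WT library and 5194 cells of the library labelled KO remained, with medians of 8281 and 9350.5 unique molecular identifiers (UMIs, the counted RNA molecules) per cell. Runx3 itself stood at 255 UMIs per 1000000 (CPM, interval 252 to 259) in WT and at 192 CPM (188 to 196) in the library labelled KO, and since the deleted part of the gene is not given, this does not settle the label. Only 1 cell in each library held 3 or more of 9 epithelial markers, so the labelled tissue is represented almost wholly by other cells. The libraries shared 17 cell barcodes. Cells with a UMI of a Y-linked gene and none of Xist (male-type) numbered 6629 in WT against 1250 in the library labelled KO. Cells with the opposite pattern (female-type) numbered 1 and 2840, and 419 cells of the library labelled KO had both, so several of the macrophage comparisons between the libraries are also given for male-type and female-type cells alone.

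Lipid-associated macrophages are phagocytes found in obese fat, in artery plaques and in tumours, where they take up lipid from dying cells and lipoproteins. TREM2 is a surface receptor that binds lipids and lipoproteins, CD36 is a fatty acid and lipoprotein scavenger receptor, LPL is the secreted lipase that frees fatty acids from triglycerides, FABP5 carries fatty acids inside the cell and APOE carries cholesterol out of it. GPNMB is a glycoprotein of lysosomes and the cell surface, SPP1 (osteopontin) is a secreted ligand of integrins and CD44, LGALS3 is galectin-3, a sugar-binding protein recruited to damaged lysosomes, and CD9 is a tetraspanin that organises membrane proteins.

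Cells were assigned to classes by counting how many markers of each class had a UMI, and no member is a marker. The macrophage gate (5 or more of 9 markers, such as Csf1r, Adgre1 and C1qa) held 4933 WT cells and 3187 cells of the library labelled KO. The T and NK gate held 1361 and 512 cells, the dendritic gate 247 and 172, the mesenchymal gate 173 and 107, and the osteoclast gate 18 and 26. Cells that met more than 1 gate (765 and 463) and cells that met none (788 and 600) were kept apart. A total of 83.1% of the WT macrophages were male-type, against 26.6% of those of the library labelled KO, in which 58.2% were female-type.

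All positions are from GENCODE M21 on mm10. Fabp5 lies on chromosome 3 from 10012548 to 10016607, Lpl on chromosome 8 from 68880491 to 68907448, Cd9 on chromosome 6 from 125460266 to 125494791, Cd36 on chromosome 5 from 17781690 to 17888801 and Lgals3 on chromosome 14 from 47367751 to 47386160. Spp1 lies on chromosome 5 from 104435118 to 104441050, Gpnmb on chromosome 6 from 49036546 to 49070929, Apoe on chromosome 7 from 19696109 to 19699188 and Trem2 on chromosome 17 from 48346401 to 48354147. The 250 bases before the RefSeq start of these 4 genes (GRCm38.p6) are printed because Apoe and Trem2 were highest in the same macrophage state, whereas Gpnmb and Spp1 were highest in others, and because the library labels name a RUNX factor. Capitals mark matches to any of 5 motifs searched on both strands, and each sequence is written 5′ to 3′ on the strand of its gene. The windows are, for Spp1, chr5:104434861-104435110 (plus strand), for Gpnmb, chr6:49036268-49036517 (plus strand), for Apoe, chr7:19699189-19699438 (minus strand) and, for Trem2, chr17:48346151-48346400 (plus strand).
Spp1: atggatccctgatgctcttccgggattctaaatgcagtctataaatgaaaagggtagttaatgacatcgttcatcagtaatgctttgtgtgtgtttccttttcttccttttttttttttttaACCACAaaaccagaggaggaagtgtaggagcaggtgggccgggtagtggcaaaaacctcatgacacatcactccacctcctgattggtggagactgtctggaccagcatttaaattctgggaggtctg
Gpnmb: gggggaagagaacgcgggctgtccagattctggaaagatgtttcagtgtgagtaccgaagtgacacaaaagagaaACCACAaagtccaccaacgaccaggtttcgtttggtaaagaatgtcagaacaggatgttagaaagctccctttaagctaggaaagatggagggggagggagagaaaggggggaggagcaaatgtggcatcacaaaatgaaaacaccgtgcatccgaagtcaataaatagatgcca
Apoe: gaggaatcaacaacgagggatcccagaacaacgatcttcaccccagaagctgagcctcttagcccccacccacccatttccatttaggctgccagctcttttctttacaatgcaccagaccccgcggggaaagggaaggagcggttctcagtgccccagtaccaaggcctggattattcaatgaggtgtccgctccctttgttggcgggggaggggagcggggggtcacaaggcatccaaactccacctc
Trem2: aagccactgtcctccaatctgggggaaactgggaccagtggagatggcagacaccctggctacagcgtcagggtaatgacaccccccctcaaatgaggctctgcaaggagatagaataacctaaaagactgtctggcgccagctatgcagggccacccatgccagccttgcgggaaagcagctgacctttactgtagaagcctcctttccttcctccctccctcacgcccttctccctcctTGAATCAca
The motifs were TGTGGT (the core bound by RUNX factors), CACGTG and CATGTG (sites of the lysosomal MiT/TFE factors), ACGTG (the hypoxia response core, which overlaps CACGTG) and TGANTCA (a loose form of the AP-1 site). That loose form allows any base in the middle. The RUNX core was found on the reverse strand in the windows of Gpnmb, starting 175 bases before the start site, and of Spp1, 128 bases before it. It was in 14% of all 32851 promoter windows of that length in the table. In the Trem2 window a match to the loose AP-1 form, TGAATCA, lay 9 bases before the start site, against 6.75% of all windows with such a match. The Apoe window held none of the 5. Of the 7 members with a window in the table, Cd9 had 1 match, CATGTG (in 12.3% of all windows), and Cd36 and Lgals3 had none. The windows of Cd36 and Lgals3 follow RefSeq starts that lie 52905 and 6109 bases from the GENCODE starts. A match is a description of letters and not a measured site.

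Macrophages held most UMIs of each member, but also 64.2% (WT) and 64.9% (library labelled KO) of all UMIs. With 64.1%, Gpnmb of the latter library was just below that share, and Cd9, with 65.7%, was close to it. The remaining values were higher, from 69.0% (Gpnmb, WT) to 86.4% (Apoe, library labelled KO). Apoe had the largest difference of the 9 from T and NK cells after adding 5 CPM, 4.96 and 4.61 on the log2 scale, at 6188 CPM (6166 to 6211) in WT macrophages against 194 CPM (184 to 205) in T and NK cells, and at 7139 CPM (7111 to 7167) against 288 CPM (269 to 308) in the library labelled KO. Trem2 followed, with 420 CPM (415 to 426) against 13.6 CPM (11 to 16.6) in WT and 439 CPM (432 to 446) against 20.4 CPM (15.6 to 26.3). On log2(CPM + 5), all 9 members were higher in macrophages than in T and NK cells in both libraries, where 39.8% (WT) and 42.3% of all genes were. Of the 9, 8 were at least 2-fold higher in WT, where 10.6% of all genes were, and 9 of 9 in the library labelled KO, where 11.2% of all genes were. The median log2 difference of the members was 2.58 for WT and 2.5 for the library labelled KO, against -0.17 and -0.14 over all genes.

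Spp1 was the member that missed 2-fold in WT. It stood at 538 CPM (531 to 544) in WT macrophages and at 376 CPM (362 to 391) in WT T and NK cells, a log2 difference of 0.51, and at 953 CPM (943 to 963) against 341 CPM (321 to 363) in the library labelled KO, a log2 difference of 1.47. Split by receptor genes, the NK cells (Ncr1 or Klrb1c with no Cd3 gene) held 774 CPM in 237 WT cells and 867 CPM in 77 cells of the library labelled KO. The Cd8 cells held 311 and 266 CPM, and the Foxp3 cells 46.1 and 125 CPM. In WT the NK cells thus held a higher Spp1 level than the macrophages, and this split was chosen after the levels had been seen. In the library labelled KO, 19.4% of the Spp1 UMIs of T and NK cells came from 1 cell. Per UMI of Apoe, the class named T and NK held 1.94 UMIs of Spp1 in WT against 1.18 in the library labelled KO, whereas macrophages held 0.0869 and 0.133. The macrophage markers summed to 359 and 444 CPM in T and NK cells, against 11365 and 10600 CPM in macrophages.

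**Figure D1:**
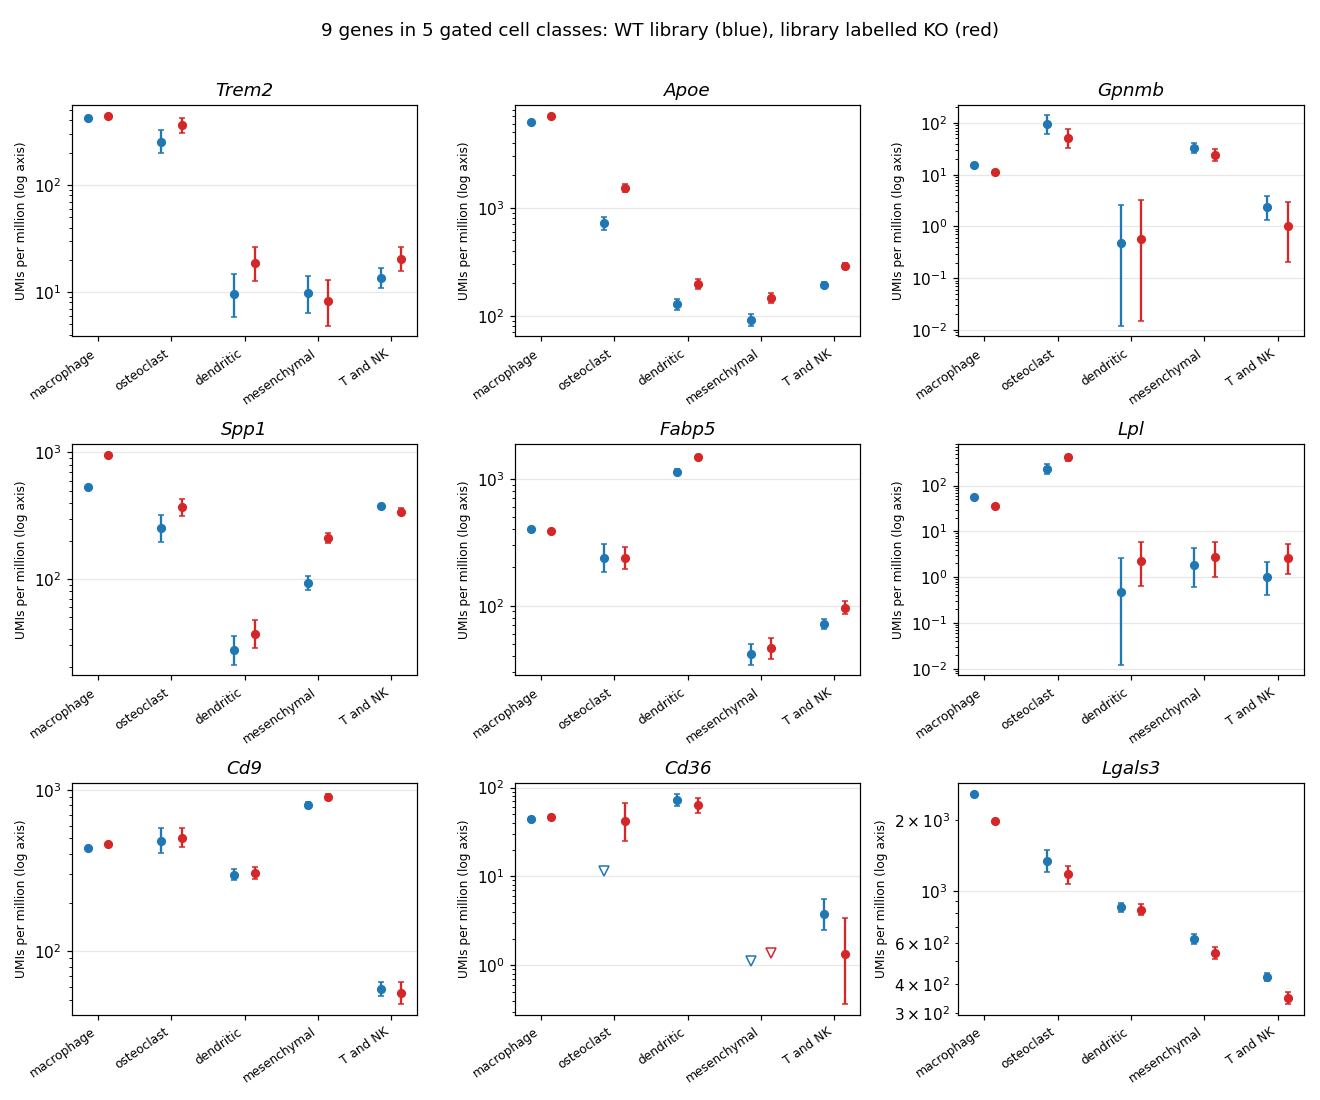
Level of each gene (CPM, log axis) in 5 gated classes, WT in blue and the library labelled KO in red, with exact Poisson 95% intervals; open triangles mark the limit that a count of 0 allows. Apoe, Trem2 and Lgals3 were highest in macrophages, Lpl in osteoclast-gated cells, Fabp5 in dendritic cells and Cd9 in mesenchymal cells. The Gpnmb level in osteoclast-gated cells came mostly from 1 cell per library, and without that cell it was 34.0 CPM in WT and 9.64 CPM for the library labelled KO.

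Fabp5, Cd36, Cd9 and Gpnmb were higher in some class outside the macrophages. Fabp5 reached 1138 CPM (1093 to 1185) in the dendritic cells of WT and 1494 CPM (1437 to 1552) in the other library, against 405 CPM and 389 CPM in macrophages. Within the dendritic gate it was the mature cells (Ccr7 or Fscn1) that held it, at 2359 and 3506 CPM, whereas the type 1 cells (Xcr1 or Clec9a) stood at 39.0 and 28.8 CPM. Cd36 had the reverse pattern inside that gate, with 178 and 194 CPM in type 1 cells and 10.6 and 11.3 CPM in mature cells. The highest levels of these fatty acid proteins thus lay in different dendritic cells in both libraries, a split also chosen after the levels had been seen. Over the whole gate, 3 of 9 members were at least 2-fold above T and NK cells in WT (10.3% of all genes) and 4 of 9 in the library labelled KO (10.9%). In the gate as a whole Cd36 stood at 72.7 CPM (61.7 to 85.2) and 63.5 CPM (52.2 to 76.5), above the macrophage levels of 44.8 CPM and 46.7 CPM. Fabp5 has near-identical pseudogene copies, so its counts could be split or shared with them.

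Cd9 was highest, among the larger classes, in mesenchymal cells, which carry collagen genes. It stood there at 807 CPM (774 to 842) in WT and at 906 CPM (867 to 946) in the library labelled KO, against 433 and 463 CPM in macrophages and 58.1 and 55.0 CPM in T and NK cells. Only the neutrophil-gated cells, 12 in WT and 79 in the other library, had more among the gated classes, 1274 and 1376 CPM. Mesenchymal cells also held Gpnmb, at 32.5 CPM (26.0 to 40.1) and 24.5 CPM (18.4 to 31.9), about 2 times the macrophage level of 15.1 CPM and 11.4 CPM. Trem2 stood at 9.70 and 8.16 CPM in those cells, beside 13.6 and 20.4 CPM in T and NK cells, and Cd36 had no UMI, which allows at most 1.12 and 1.36 CPM. The Cd9 gene overlaps 2 genes on the opposite strand, Gm28809 and Gm26728, and Spp1 overlaps Gm42793 on its own strand.

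The osteoclast gate asked for 4 or more of 9 markers and for at least 20 UMIs of Ctsk and Acp5 per 10000. Lpl was high in these cells, at 235 CPM (180 to 301) in WT and 412 CPM (354 to 478) in the library labelled KO, against 55.3 CPM (53.2 to 57.4) and 35.6 CPM (33.7 to 37.6) in macrophages. It was found in 12 of 18 and in 20 of 26 cells, and without the cell with the most UMIs it stood at 183 and 371 CPM. Lpl, the lipase, was therefore spread over most of the osteoclast-gated cells in both libraries. Apoe was lower than in macrophages, at 720 CPM (621 to 829) and 1528 CPM (1413 to 1650), and Spp1 stood at 254 CPM (197 to 322) and 368 CPM (313 to 430). Trem2, which also pairs with TYROBP in osteoclasts, stood at 254 CPM (197 to 322) and 363 CPM (309 to 425).

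Gpnmb also had a high mean in the osteoclast gate, 94.7 CPM and 51.2 CPM, but few cells carried it. In WT it had UMIs in 4 cells, 68% of them in 1 cell, and without that cell the level was 34.0 CPM (14.7 to 67.0). In the library labelled KO it had UMIs in 3 cells, 82% of them in 1 cell, and the level without that cell was 9.64 CPM (2.63 to 24.7), beside 11.4 CPM in macrophages. Cd36 had no UMI in WT, which allows at most 11.4 CPM, and 18 UMIs in the library labelled KO, all in 1 cell. At the class level 2 of 9 members, Lpl and Gpnmb, were at least 2-fold above macrophages in each library, where 10.7% (WT) and 8.64% of all genes were. At least 2-fold below were 3 members in WT (15.8% of all genes) and 2 in the library labelled KO (14.3%), Apoe and Spp1 in both, with Cd36 in WT resting on a count of 0. Either way it was 5 and 4 of 9, where 26.5% and 22.9% of all genes were. The median member differed by -0.75 and -0.27 on the log2 scale, against -0.11 and -0.04 over all genes. These values rest on few cells: among male-type cells alone the median for the library labelled KO was -2.10.

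Macrophages were then divided into 9 states by their highest-scoring marker list, with a state given only at a score of at least 1 SD above the mean of both libraries, and 1600 WT cells and 804 cells of the library labelled KO were left with no state. The states are ranges of a score and not types: 14.9% and 12.9% of the macrophages lay within 20% of the cut. They are the resident-type (Folr2, Lyve1), Ear2-type, Arg1-type, hypoxic, Cxcl3-high, cycling and Ly6c2 monocyte states and 2 interferon states, called here interferon signature (Ifit genes) and interferon gamma type (Gbp genes). The members did not follow one axis across these states. Counting cells with no state as 1 more, which gives 10 states, 5 of 9 members were highest in the same state in both libraries, and 6 of 9 were lowest in the same state.

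Apoe and Trem2 shared the resident-type end. Apoe stood at 12920 CPM in WT resident-type cells and 12752 CPM in those of the library labelled KO, and was lowest, at 1651 and 2200 CPM, in Ear2-type cells, a span of 7.83 and 5.80 times. Trem2 had a narrower span of 2.01 and 2.32 times, from 616 and 605 CPM in resident-type cells to 307 and 260 CPM in Ly6c2 monocytes. Its next levels in WT, 490 CPM in hypoxic and 488 CPM in Arg1-type cells, had a ratio whose interval included 1. The transcripts of the lipoprotein receptor TREM2 and of the apolipoprotein APOE were thus both highest in the cells with resident markers. Ly6c2 cells, the monocyte end, were low in both, with Apoe at 4089 and 3400 CPM.

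Lgals3 and Cd9 ran the other way. Lgals3 was highest in hypoxic cells, at 4277 and 4240 CPM, next in Arg1-type cells, at 4091 and 3487 CPM, and lowest in resident-type cells, at 1654 and 950 CPM. Cd9 was likewise lowest in resident-type cells, at 199 and 239 CPM, and highest in Cxcl3-high cells, at 719 and 862 CPM. Its order over the 10 states was the most alike between the libraries of any member, with a Spearman rho of 0.976. Ear2-type cells, which were the lowest for Apoe, were not low for either gene, with Cd9 at 541 and 530 CPM and Lgals3 at 2657 and 2291 CPM.

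Spp1 was highest in Cxcl3-high cells (marked by Cxcl3, Slpi and Inhba), at 1545 CPM in WT and 3680 CPM in the library labelled KO. Arg1-type cells followed with 1341 and 1596 CPM and hypoxic cells with 1230 and 1450 CPM, and Ear2-type cells were lowest with 205 and 329 CPM. In cells thinned to 2000 UMIs, Spp1 was found in 53.1% (41.7% to 64.3%) of WT Cxcl3-high cells and 79.5% (73.2% to 84.9%) of those of the library labelled KO, beside 69.5% and 87.2% before thinning. The share of thinned T and NK cells with Spp1 was 13.9% and 16%, in a class with medians of 4182 and 4847.5 UMIs beside 9447 and 9006 in Cxcl3-high cells. Osteopontin thus followed the inflammatory, Arg1-type and hypoxic states rather than the resident-type state, where it stood at 405 and 469 CPM.

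**Figure D2:**
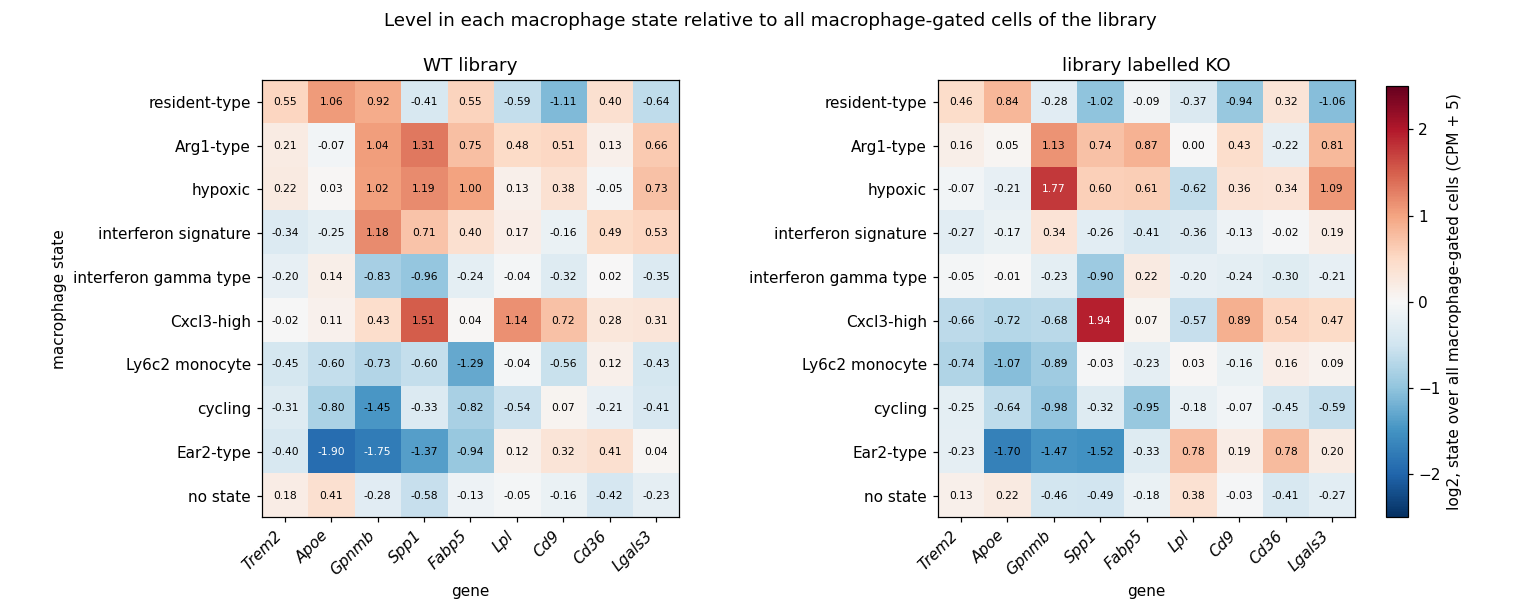
Log2 level of each gene (columns) in each macrophage state (rows) relative to all macrophage-gated cells of the same library, after adding 5 CPM; red is above and blue below. Apoe was 1.06 and 0.84 above in resident-type cells and Spp1 1.51 and 1.94 above in Cxcl3-high cells, while Ear2-type cells were low for Apoe, Gpnmb and Spp1 in both libraries.

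Gpnmb and Fabp5 were high together in the Arg1-type and hypoxic states. Gpnmb stood at 36.2 and 30.8 CPM in Arg1-type cells and 35.8 and 50.8 CPM in hypoxic cells, against 0.964 and 0.923 CPM in Ear2-type cells, which had 6 and 2 UMIs. Fabp5 stood at 686 and 713 CPM in Arg1-type cells and 817 and 597 CPM in hypoxic cells, and its highest and lowest states differed between the libraries. In WT, interferon signature cells stood at 40.5 CPM of Gpnmb, beside 36.2 CPM in Arg1-type cells, and resident-type cells had 33.0 CPM. These states stood at 15.7 and 8.50 CPM in the library labelled KO. The lists for the Arg1-type and hypoxic states adjoin, since the Arg1-type list includes Vegfa, a gene induced by low oxygen.

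The order of the states for Lpl was not shared by the libraries. Lpl was highest in WT Cxcl3-high cells, at 128 CPM, but 49 of its 104 UMIs there came from 1 cell and the level without that cell was 68.5 CPM. Ear2-type cells were highest for it in the library labelled KO, at 64.6 CPM, where WT had 60.4 CPM. The Spearman rho between the libraries over the 10 states was -0.22 for Lpl, and 0.61 for Cd36 beside 0.62 for Fabp5. Cd36 ranged only from 32.1 to 64.7 CPM in WT and from 32.9 to 84.0 CPM in the library labelled KO, with Ear2-type cells among the highest in both, at 61.0 and 84.0 CPM.

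The Arg1-type, hypoxic, Cxcl3-high, resident-type and Ear2-type states were also set against the macrophages with no state. The interferon, cycling and Ly6c2 monocyte states are not counted here, so a pattern below need not be particular to the states named. Interferon signature cells had Gpnmb at 40.5 against 11.5 CPM in WT and 15.7 against 6.97 CPM in the library labelled KO. Their Spp1 stood at 886 against 358 CPM and at 794 against 678 CPM. In Arg1-type cells, 2 of 9 were at least 2-fold higher in WT (0.802% of all genes) and 4 of 9 in the library labelled KO (1.08%), with Gpnmb and Spp1 in both and Fabp5 and Lgals3 added in the latter. In hypoxic cells 3 of 9 were in each library (1.09% and 1.85% of all genes), again with Gpnmb and Spp1 in both, and 0 and 1 were at least 2-fold lower (0.388% and 1.29%), Lpl in the library labelled KO at 21.4 against 47.8 CPM. In Cxcl3-high cells Spp1 was, in both libraries, and Lpl in WT, giving 2 and 1 of 9 (1.7% and 2.62%). Resident-type cells had 1 and 0 members at least 2-fold higher (0.944% and 1.58%), Gpnmb in WT, and none at least 2-fold lower (0.713% and 1.49%). In Ear2-type cells 2 and 3 members were at least 2-fold lower (0.541% and 0.979%), Apoe and Gpnmb in both and Spp1 in the library labelled KO. There 0 and 1 were at least 2-fold higher (0.961% and 1.17%), Cd36 in the library labelled KO at 84.0 against 34.0 CPM.

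Resident-type and Arg1-type cells were then set directly against each other. Apoe was higher in resident-type cells by 1.13 (WT) and 0.79 (library labelled KO) on the log2 scale, Trem2 by 0.33 and 0.30, and Cd36 by 0.27 and 0.54. With all cells thinned to 2000 UMIs the direction for Cd36 turned in both libraries, to -0.05 and -0.35. The other 6 were lower, with Spp1 at -1.72 and -1.76, Cd9 at -1.62 and -1.37 and Lgals3 at -1.30 and -1.87. At least 2-fold lower were 4 members in each library, where 2.18% and 3.69% of all genes were, and at least 2-fold higher were 1 and 0 members, where 2.87% and 5.03% of all genes were. The fourth member was Lpl in WT, at -1.07, and Gpnmb in the library labelled KO, at -1.41. The Lpl value in WT was past 2-fold in 8 of 16 alternatives, and it was -0.36 among the male-type cells of WT alone. The median member differed by -0.20 and -0.96, against 0.18 and 0.26 over all genes. Only 47 of the 544 resident-type cells of the library labelled KO were male-type, and among male-type cells alone Spp1 differed by -0.64 and Lpl by 0.78 in that library.

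Over the 10 states several members were correlated in overlapping groups. The Pearson correlation of log2 levels was 0.79 (WT) and 0.76 (library labelled KO) for Trem2 with Apoe, 0.89 and 0.75 for Gpnmb with Fabp5, 0.74 and 0.80 for Cd9 with Lgals3, and 0.77 and 0.60 for Spp1 with Lgals3. It was 0.60 and 0.64 for Fabp5 with Lgals3, 0.55 and 0.74 for Spp1 with Cd9, and 0.56 and 0.59 for Gpnmb with Lgals3. Apoe and Cd9 ran apart, at -0.40 and -0.47. Spp1 with Lpl was 0.64 in WT against -0.58 in the library labelled KO, a sign that was not shared. These correlations describe 10 points per library that come from the same cells, and they have no test.

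**Figure D3:**
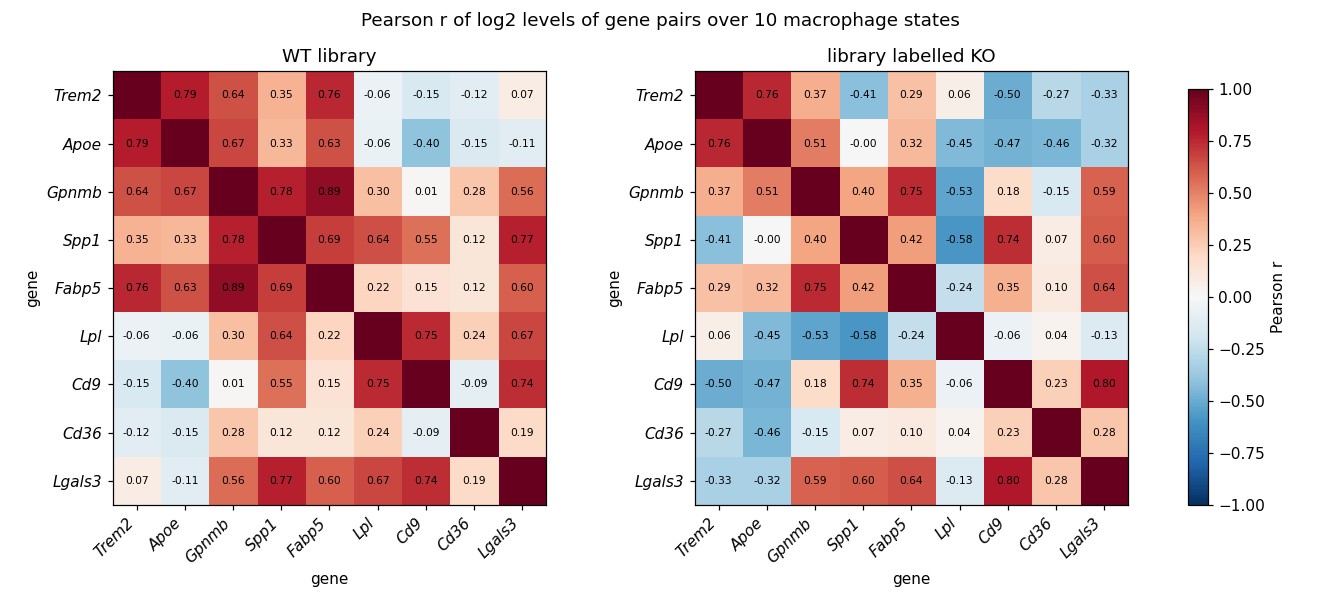
Pearson correlation of log2 levels of each pair of genes over 10 macrophage states (9 named states and the cells with none), WT at left and the library labelled KO at right; red is positive and blue negative. Trem2 with Apoe was at 0.79 and 0.76 and Gpnmb with Fabp5 at 0.89 and 0.75, whereas Spp1 with Lpl had opposite signs.

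Within single macrophages the members differed in how they were shared out. At 2000 UMIs per cell, Lgals3 was found in 92.8% of macrophages from WT and 84.6% from the library labelled KO, Apoe in 85.2% and 89.6%, and Trem2 in 52.9% and 54.1%. Spp1 was found in 35.1% and 46.8% and Fabp5 in 34.4% and 33.3%. For Spp1, 66.5% (WT) and 63.1% (library labelled KO) of the UMIs came from the 10% of macrophages with the most, beside 35.2% and 36.0% for Trem2. Spp1 and Fabp5 were thus carried by a smaller share of cells than Trem2 and Cd9, of which Cd9 had 38.3% and 39.9%. The median macrophage had UMIs of 4 of the 9 members in either library, and no thinned cell had all 9.

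Gpnmb was rare, in 2.49% and 1.76% of thinned macrophages, against 0.40% and 0.20% of T and NK cells. It was found together with Fabp5 2.08 times as often in WT and 2.33 times as often in the library labelled KO as the product of their shares gives, and with Spp1 1.65 and 1.54 times. For Trem2 with Apoe the same ratio was 1.04 and 1.05, both being common. Before thinning, Gpnmb was found in 296 WT macrophages and 168 of the library labelled KO. The cell-level pairing of Gpnmb with Fabp5 was in the same direction as their correlation across states, which comes from the same cells. For Gpnmb with Lpl the ratio was 1.57 and 1.64, from 15 and 4 cells with both, beside correlations across states of 0.30 and -0.53.

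Between the libraries, macrophages differed little in most of the set. Spp1 was higher in the library labelled KO, 953 against 538 CPM, a ratio of 1.77 (1.74 to 1.80) and 0.82 on the log2 scale. Lpl was lower, 35.6 against 55.3 CPM, a ratio of 0.643 (0.601 to 0.688), Lgals3 was lower, 1989 against 2586 CPM, a ratio of 0.769 (0.762 to 0.776), and Gpnmb was lower, 11.4 against 15.1 CPM, a ratio of 0.756 (0.668 to 0.855). Apoe had a ratio of 1.15 (1.15 to 1.16), Cd9 of 1.07 (1.05 to 1.09), Trem2 of 1.04 (1.02 to 1.07), Fabp5 of 0.960 (0.939 to 0.981) and Cd36 of 1.04 (0.978 to 1.11). None of the 9 reached a 2-fold difference, which 0.363% of all 13778 genes did, 0.305% higher and 0.0581% lower. The median member differed by 0.05 on the log2 scale, against -0.01 over all genes.

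The sex types moved some of these values. Among male-type macrophages alone, Lpl differed by -1.08 on the log2 scale, and, with female-type cells in place of male-type ones for the library labelled KO, by -0.29. Spp1 differed by 0.95 and 0.84 and Lgals3 by -0.25 and -0.45 in the same 2 settings, and Apoe by 0.01 and 0.32. The direction for Spp1, Lpl and Lgals3 was thus the same with either kind of cell, whereas the small Apoe difference was seen with the female-type cells. The states also took different shares of the macrophages: resident-type cells made up 6.53% in WT against 17.1% in the library labelled KO, and Cxcl3-high cells 1.66% and 6.62%. Of male-type macrophages, 271 of 4101 WT cells were resident-type, beside 47 of 847 from the other library. Of its female-type macrophages 435 of 1855 were, so the larger resident-type share was seen with female-type and not with male-type cells. Cxcl3-high cells numbered 63 of the 4101, 64 of the 847 and 100 of the 1855, a larger share with either sex type. At the WT state shares, the Spp1 difference was 0.61 and the Apoe difference 0.07. What these shares owe to genotype, sex or single animals cannot be told apart.

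**Figure D4:**
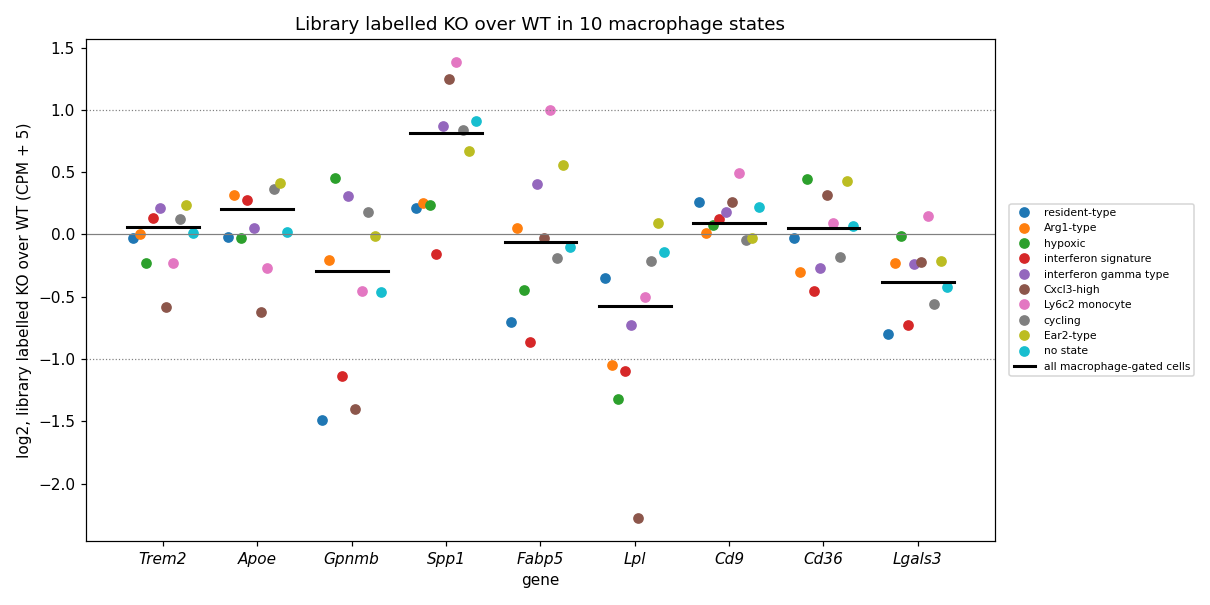
Log2 ratio between the libraries (the one labelled KO divided by WT) after adding 5 CPM, for each gene in 10 macrophage states (coloured points) and in all macrophages (black bar); dotted lines mark 2-fold. Spp1 was above 0 in 9 of 10 states, and Lpl and Lgals3 were below 0 in 9 of 10.

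State by state, Spp1 was higher in the library labelled KO in 9 of 10 states, each with an interval above 1, and lower in interferon signature cells, at 794 against 886 CPM. These intervals leave out the spread between cells, which was wide for Spp1. The ratio was largest in Ly6c2 monocytes, 935 against 354 CPM (2.64, interval 2.44 to 2.85), and in Cxcl3-high cells, 3680 against 1545 CPM (2.38, 2.24 to 2.53). In Ly6c2 cells the log2 difference was 0.88 for male-type and 1.73 for female-type cells, and in Cxcl3-high cells 1.59 and 1.32. It was small in Arg1-type cells, 1596 against 1341 CPM, and in hypoxic cells, 1450 against 1230 CPM. Spp1 was above the male-type WT cells in both sex types in 7 of 10 states. In resident-type cells the 47 male-type cells differed by 1.41 and the 435 female-type cells by -0.01. The macrophage markers summed to 9280 CPM in WT Cxcl3-high cells and 5629 CPM in those of the library labelled KO, and the neutrophil markers to 75 and 100 CPM, and their part in the Spp1 difference was not tested.

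Lgals3 was lower in the library labelled KO in 9 of 10 states, 8 of them with an interval below 1, and most so in resident-type cells, 950 against 1654 CPM. Lpl was lower in 9 of 10 states, 7 of them with an interval below 1. Its lowest value was in Cxcl3-high cells, 22.4 against 128 CPM, where 1 WT cell held much of it, followed by hypoxic cells, 21.4 against 60.8 CPM, and interferon signature cells, 26.7 against 62.8 CPM. Lpl was higher only in Ear2-type cells, 64.6 against 60.4 CPM. Both sex types were below WT in 8 of 10 states for Lgals3 and in 7 of 10 for Lpl.

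On the log2 scale after adding 5 CPM, Gpnmb differed most in resident-type cells, at 8.50 CPM (ratio 0.258, interval 0.177 to 0.370) against 33.0 CPM, with log2 differences of -2.48 for male-type and -1.46 for female-type cells. It was also lower in Cxcl3-high cells, 5.24 against 22.1 CPM (ratio 0.237, interval 0.101 to 0.530), and in interferon signature cells, 15.7 against 40.5 CPM, but higher in hypoxic cells, 50.8 against 35.8 CPM (ratio 1.42, 1.09 to 1.83). Fabp5 was about 2 times as high in Ly6c2 monocytes, 331 against 163 CPM, and lower in resident-type cells, 365 against 597 CPM. Both genes were thus lower in the resident-type cells of the library labelled KO, whereas in Arg1-type cells the intervals of their ratios included 1. At least 2-fold differences in the states were few. There were 2 lower members in interferon signature cells (1.13% of all genes were past 2-fold either way), and 1 lower member each in resident-type (0.917%), Arg1-type (0.707%) and hypoxic cells (0.674%). Ly6c2 monocytes had 1 higher member (1.16%). Among genes with at least 50 UMIs, Cxcl3-high cells had 1 higher member, Spp1, and 1 lower, Lpl (3.72%). Gpnmb was also at least 2-fold lower there, but it had fewer than 50 UMIs and is outside that share. Ear2-type (0.503%), interferon gamma type (0.431%) and cycling cells (0.786%) and the cells with no state (0.304%) had 0.

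Outside the macrophages, Spp1 was 2.27 times as high (1.94 to 2.66) in mesenchymal cells of the library labelled KO, at 210 against 92.6 CPM, and was the 1 member past 2-fold there, where 0.291% of all genes were. It was lower in T and NK cells, with a ratio of 0.908 (0.843 to 0.976). No member was past 2-fold in T and NK cells (0.606% of all genes) or in dendritic cells (0.899%), and 3 of 9 were in cells that met no gate (2.71%). Apoe was 1.48 times as high in T and NK, 1.54 times in dendritic and 1.58 times in mesenchymal cells. T and NK cells held 0.376% (WT) and 0.293% of the Apoe UMIs, dendritic cells 0.0758% and 0.116%, and mesenchymal cells 0.0696% and 0.109%. Macrophages held 85.4% and 86.4%. The part of RNA from macrophages in these 3 ratios was not tested. In osteoclast-gated cells Apoe had a ratio of 2.12 (1.80 to 2.51) and was the 1 member with at least 50 UMIs past 2-fold, where 3.12% of all genes were. Cd36 was also past 2-fold, from the single cell described above, but it had fewer than 50 UMIs and is outside that share.

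Related genes were taken as lists that hold no member and were compared in the same macrophages. Between the libraries 0.363% of all genes were past 2-fold there, the share to set beside each such count for a list. Higher in the library labelled KO by any amount were 48.5% of all genes, the share to set beside each count of higher genes. Of the 12 genes of TREM2 signalling, 6 were higher and 6 lower in the library labelled KO, none past 2-fold, with a median of -0.02. They ran from Plcg2 (phospholipase C gamma), at 95.7 against 119 CPM, to Adam10 (the protease that sheds TREM2), at 172 against 143 CPM. Tyrobp, the adaptor through which TREM2 signals and the most abundant of them, stood at 1627 against 1740 CPM. All of these partners stayed within 2-fold, as Trem2 and nearly all other genes did. Of 10 measured lipid uptake receptors 6 were higher, with a median of 0.09, and Olr1, a receptor for oxidised LDL, was the 1 past 2-fold, at 110 against 51.5 CPM. Cxcl16 was the most abundant, at 567 against 612 CPM.

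Among 16 measured genes of cholesterol and lipid export or storage, 8 were higher and 8 lower, none past 2-fold, with a median of -0.04. Dgat1, which makes triglyceride, was lowest at 34.8 against 59.5 CPM, Hilpda, a lipid droplet protein induced by low oxygen, highest at 202 against 161 CPM, and Npc2, which moves cholesterol out of lysosomes, the most abundant at 1163 against 1437 CPM. For PPAR and fatty acid genes 7 of 11 were higher, with a median of 0.04, from Ppard at 103 against 114 CPM to Fabp4 at 5.85 against 4.55 CPM, and Acsl4 was the most abundant at 138 against 132 CPM. For the lipolysis genes around LPL 2 of 6 were higher, with a median of -0.19. Lmf1, which folds LPL, stood at 14.9 against 19.5 CPM, Pnpla2 (the lipase ATGL) at 24.0 against 30.6 CPM and Angptl2 at 5.09 against 2.03 CPM.

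The lysosome list had 11 of 19 genes higher, with a median of 0.08. Psap, the precursor of saposins, was both its lowest and its most abundant, at 2137 against 2788 CPM. Of 16 other genes of lipid-associated or disease-associated phagocytes 10 were higher, with a median of 0.06, from Itgax (CD11c) at 101 against 134 CPM to Csf1 at 11.9 against 7.53 CPM, with Vim at 2447 against 2454 CPM. Of 9 measured SPP1 receptors and partners 7 were higher, with a median of 0.19. Itgav, the integrin alpha V chain that binds osteopontin, stood at 477 against 308 CPM, Itga4 at 171 against 217 CPM and Cd44 at 1381 against 1389 CPM. Spp1 and its integrin chain Itgav were thus both higher, at 1.77 and 1.55 times the WT level.

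Of 11 tetraspanins, the family of Cd9, 5 were higher, with a median of -0.002, from Tspan33 at 4.61 against 7.89 CPM to Tspan3 at 33.3 against 26.7 CPM, with Cd53 at 391 against 378 CPM. Of 4 measured galectin genes 2 were higher, with a median of 0.03. Lgals1 (galectin-1) stood at 1242 against 1002 CPM, the opposite direction to Lgals3, and Lgals3bp at 97.7 against 145 CPM. In the comparison list of resident scavenger genes, 5 of 12 genes are also markers of the resident-type state. Of its 6 measured genes 5 were higher and 2 past 2-fold (0.363% of all genes were), with a median of 0.57. Among the measured genes, Fcrls, Folr2, Stab1 and Cd163 are such markers. Mrc1 and Clec10a are not, and they differed by 0.02 and -0.19 on the log2 scale. Fcrls stood at 203 against 58.8 CPM, Clec10a at 23.1 against 27.0 CPM and Mrc1 at 756 against 747 CPM. The median of this list, which lay between values of marker genes, was the farthest from 0 of the 11 lists. Apoe and Trem2, the members highest in resident-type cells, had the ratios of 1.15 and 1.04 given above.

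In osteoclast-gated cells the same lists split, and the genes named here were chosen after their values were seen. Of 19 lysosome genes 5 were at least 2-fold above macrophages in each library, where 10.7% and 8.64% of all genes were, among them Atp6v1a and Cd63, at 2.47 and 1.73 in WT and 1.72 and 1.64 in the library labelled KO on the log2 scale, and Atp6v0d2, which is a marker of the gate. At least 2-fold below were 5 and 6 of the 19, where 15.8% and 14.3% of all genes were, among them Lamp1, at -2.54 and -2.42. Of 10 measured lipid uptake receptors 6 were at least 2-fold below in each library (15.8% and 14.3% of all genes), such as Msr1 at -2.49 and -3.14. At least 2-fold above were 1 and 0 of the 10 (10.7% and 8.64%), Cd68 in WT, at 1.56 beside 0.98 in the other library. Cd68 is itself a marker of the macrophage gate. The lipase Pnpla2 was also above macrophages, at 2.03 and 1.46.

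Genes with the most similar pattern were sought over 14 classes and states in each library, 28 points in all, among 11119 genes that mark no class. Trem2 was most like Mrc1 (Pearson 0.98), followed by Cd300ld and Ctsa at 0.97 each. Apoe was most like Msr1, Abca1 and C3ar1, at 0.98, 0.98 and 0.97. Gpnmb was most like Bhlhe41 at 0.89, Ak4 at 0.87 and Hyal2 at 0.86, and Spp1 was most like Rgcc at 0.92, Nus1 at 0.90 and Il1a at 0.87. Fabp5 and Cd36 shared Tbc1d9, at 0.90 and 0.96, and followed Zmynd15 and C9orf72 at 0.89 and 0.88, and Cd86 and Bcl2a1a at 0.96 and 0.95. Lpl was most like Lsmem1, Lyz2 and Lrpap1, at 0.93, 0.92 and 0.91, Lgals3 like Slc16a3, F7 and Fcrlb, at 0.95, 0.94 and 0.94, and Cd9 like Atp6v1g1, Gsn and P4hb, at 0.82, 0.80 and 0.79. The points share libraries and depth, so these values are a description.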

How the data were processed

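The authors deposited UMI counts, not normalized, as 1 sparse matrix of genes by cells for each library, written by Cell Ranger 8.0.1, per the file headers. The submitters' processing notes name mm10 and Seurat 3. A microwell chip is described in the labels' protocols, but barcodes have 16 bases, so the chemistry is unsure. The libraries hold 8800 and 6573 barcodes with 85367638 and 62465176 UMIs.

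Barcodes with at least 500 UMIs, 200 genes and at most 25% mitochondrial UMIs were kept, which removed 1060 from the library labelled KO, and the 5% with the highest Scrublet scores were left out as likely doublets (457 and 319), since the automatic threshold marked 0% and 0.0181%. Cells were gated on markers found: 5 of 9 macrophage, 3 of 10 T and NK, 3 of 8 dendritic, 3 of 6 neutrophil, 2 of 6 B or plasma, 2 of 6 mast or basophil and 3 of 8 mesenchymal, and the osteoclast rule given above. UMIs were summed per library and class and scaled to 1000000 (CPM). Intervals are exact Poisson for levels, exact binomial (Clopper-Pearson) for shares and exact conditional for ratios; log2 differences were taken after adding 5 CPM, and at least 2-fold means past 1 on that scale among genes with at least 50 UMIs. Cells were thinned to 2000 UMIs for shares of cells. From each related list the highest, the lowest and the most abundant gene by the macrophage comparison of the libraries is named, except for some that are not reported here. Python 3.11.15, scipy 1.17.1 and scanpy 1.11.5 were used, and the ratios and intervals were tested on simulated data.

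The members and lists were chosen with earlier results of these data known, and the thresholds of the gates and states were set after seeing the data. Promoter sequences are from RefSeq (GRCm38.p6), with windows for 7 of the 9 members. Alternatives changed 1 choice at a time; their effect closes the text.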

Additional observations from a re-analysis of the deposited data

Results flagged for a closer look

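Cells that met no gate, 788 from WT and 600 from the other library, belong to none of the named classes, and 3 of 9 members were at least 2-fold higher in those of the library labelled KO, where 2.71% of all genes were past 2-fold. Spp1 stood at 1777 CPM (1725 to 1830) against 267 CPM (249 to 287), a log2 difference of 2.71. Gpnmb stood at 17 CPM (12.3 to 23) against 5.10 CPM (2.85 to 8.41), a difference of 1.13, and Fabp5 at 257 CPM (237 to 277) against 116 CPM (104 to 129), a difference of 1.12. These cells were shallow, with medians of 2451 and 2778.5 UMIs. Their Cxcl3-high markers summed to 164 CPM in WT against 4114 CPM, and their neutrophil markers to 67 and 486 CPM, and the part of these in the member levels was not tested.

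Spp1 differed between the libraries in opposite directions in different classes, a contrast between classes that was not tested. It was higher in the library labelled KO in Ly6c2 monocytes, with a log2 difference of 1.39, in Cxcl3-high cells, with 1.25, and in mesenchymal cells, with 1.14, and lower in neutrophil-gated cells, with -1.18. The neutrophil value compares 12 WT cells with 79 cells. In WT, 84 of 86 Spp1 UMIs were in 1 cell and the level without it was 110 CPM (13.3 to 397). In the library labelled KO, 164 of 271 were in 1 cell and the level without it was 614 CPM (503 to 742), so that the direction turned. In mesenchymal cells Spp1 was found in 58 of 173 and 54 of 107 cells.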

How the results depend on the processing

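Over 21 alternatives, 948 of 972 member values kept their direction. Each value here is a median log2 difference of the 9 members unless a gene is named. The median between the libraries in macrophages was 0.05, and -0.050 with gates on thinned cells. Macrophages over T and NK cells stayed positive in both libraries. In WT (2.58) it was 2.54 with no doublet removal, 2.39 with 1 more marker per gate, 1.97 with gates on thinned cells, 2.74 with classes from Leiden clusters, 2.72 scaled without mitochondrial and top 50 genes, 2.88 and 2.21 after adding 1 and 20 CPM, and 2.91 with cells thinned to 2000 UMIs. For the library labelled KO it was 2.36 with 1 more marker, 1.46 with gates on thinned cells, 2.62 from Leiden clusters, 2.63 with the other scaling, 3.05 and 1.81 after adding 1 and 20 CPM, and 2.84 in female-type cells.

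Osteoclast-gated over macrophage-gated cells depended most on the choice of cells. In WT (-0.75) it was -1.19 with gates on thinned cells, -1.29 with all cells thinned and 0.077 with a looser osteoclast gate. For the library labelled KO (-0.27) it was -0.88 with the highest 10% of doublet scores left out, -2.10 in male-type cells and 0.0020 with the looser gate. Gpnmb turned there to -0.20 with 1 more marker per gate, -0.20 with gates on thinned cells and -1.69 in male-type cells, and in WT to -2.18 with all cells thinned. Spp1 turned in WT to 0.19 with the looser gate, and Gpnmb in resident-type over Arg1-type cells of the library labelled KO to 0.11 with all cells thinned. The causes were not tested. Leiden clusters gave no osteoclast cluster, so no value. The looser gate and the alternatives on state shares and on T and NK markers were chosen after seeing the data.

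No paired analysis was possible because each group is 1 library. Without a second library, nothing here separates genotype from sex, animal or preparation, and all intervals cover counting error only. The osteoclast, neutrophil and Gpnmb values rest on few UMIs and cells.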
